A study of Homo sapiens with 12 samples.

Results

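The 3 tumours grown under 87.5 mg/kg ceritinib are described here against 2 control tumours, out of 12 tumours in the series. They were chosen by their titles and by nothing measured. All were xenografts of H3122, an established human lung adenocarcinoma line with an EML4-ALK fusion, and the agent label of the treated tumours named ceritinib at 87.5 mg/kg while that of the others said control. Ceritinib is an oral inhibitor of the ALK receptor kinase. Per the study's description, treated tumours shrank at first and were taken to acquired resistance, so the drug's effect and the resistant state cannot be told apart here. The other dose groups of the series, 4 tumours at 75 mg/kg and 3 at 100 mg/kg, entered the fit and 1 comparison. The labels gave neither the mouse strain nor the age, and were silent on what the controls were given and on how many mice carried the tumours. The p-values therefore measure the spread between these tumours, which may be partly technical.

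The EML4-ALK fusion protein joins the coiled coil of EML4 to the kinase of ALK, signals without ligand through the RAS-ERK, PI3K and STAT3 routes, and keeps such lung cancer cells growing. Resistance to ALK inhibitors is known to come with kinase mutations, with other receptor kinases that take over the signal, or with a change of cell state such as epithelial-mesenchymal transition, in which cells lose epithelial junctions and gain mesenchymal traits. Transcription factors of the SNAI, ZEB and TWIST families drive that transition, and the microRNAs of the miR-34 and miR-449 family restrain several growth and adhesion genes.

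RNA was hybridized to Illumina bead arrays with human probes, so host mouse cells count only where mouse RNA binds a human probe. Each of the 5 arrays carried 47323 probes and detected between 38.6% and 41.2% of them at a detection p under 0.01. After normalization, 12300 genes with 1 probe each were tested from 20889 probes that were detected on at least 2 of the 12 arrays. The tumour markers EPCAM, KRT8, KRT19, KRT7, CDH1, NKX2-1 and ALK were detected on all 5 arrays. The KRT18 probe was detected in 0 of 3 tumours at 87.5 mg/kg (5.57, 6.1 and 5.89) and in both controls (6.24 and 6.47). On this log2 scale the KRT18 difference was -0.5 and did not pass (adjusted p = 0.349 in limma). The lowest signals that passed detection on the control arrays were 6.2 and 5.95, so the probe lay near the detection limit. On the first principal component of all 12 arrays, with 41.9% of the variance, the 87.5 mg/kg tumours lay at 1.7, -10.1 and -2.2 and the controls at -54.3 and -52.8. Replicate 2 at 87.5 mg/kg stood apart on the second component (17.6%), at 39.7 against -2.6 and -20.5 for the other tumours of its dose and 1.8 and -4.9 for the controls.

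The series title names miR-34a and miR-449, whose mature sequences are shown because a list of genes known as their targets is described below. Target sites in those genes were not searched for. The sequences are from RefSeq (GRCh38.p14), with the seed, bases 2 to 8, in capitals, and no value for the microRNAs themselves is given here.
hsa-miR-34a-5p: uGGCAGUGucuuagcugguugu
hsa-miR-449a: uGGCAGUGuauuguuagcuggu
hsa-miR-449b-5p: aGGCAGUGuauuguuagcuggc
All 3 carry the seed GGCAGUG, so a target site for one seed is a site for all. The mature miR-34a-5p is encoded at chr1:9151735-9151756 (minus strand), and miR-449a and miR-449b-5p lie close together on chromosome 5, at chr5:55170586-55170607 and chr5:55170706-55170727 (minus strand).

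Promoters of 4 called genes are shown as examples, 2 of surfactant genes that rose and 2 of cyclins that fell. Each is the 250 bases before the RefSeq gene start (GRCh38.p14), and capitals mark the AP-1 motif TGANTCA in the surfactant promoters.
SFTPB promoter: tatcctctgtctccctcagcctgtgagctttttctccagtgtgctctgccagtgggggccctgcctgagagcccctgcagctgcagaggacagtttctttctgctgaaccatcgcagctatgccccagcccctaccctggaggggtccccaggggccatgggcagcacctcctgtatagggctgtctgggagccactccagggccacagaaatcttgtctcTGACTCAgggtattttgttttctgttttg
SFTPD promoter: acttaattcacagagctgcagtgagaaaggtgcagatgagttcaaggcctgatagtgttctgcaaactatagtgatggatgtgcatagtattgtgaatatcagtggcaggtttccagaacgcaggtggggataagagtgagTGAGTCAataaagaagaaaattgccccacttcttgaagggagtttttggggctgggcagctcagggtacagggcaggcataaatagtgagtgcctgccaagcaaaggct
The SFTPB window is chr2:85668742-85668991 and the SFTPD window chr10:79949106-79949355, both on the minus strand. Each holds 1 match, which begins 29 bases before the start of SFTPB and 109 bases before the start of SFTPD. In the cyclin promoters, capitals mark the CCAAT box, which is ATTGG on the other strand.
CCNB1 promoter: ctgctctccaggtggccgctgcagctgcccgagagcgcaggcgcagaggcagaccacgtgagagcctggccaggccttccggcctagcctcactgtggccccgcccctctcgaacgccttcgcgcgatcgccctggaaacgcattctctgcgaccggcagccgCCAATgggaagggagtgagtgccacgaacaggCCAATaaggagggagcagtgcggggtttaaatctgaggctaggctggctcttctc
CCNA2 promoter: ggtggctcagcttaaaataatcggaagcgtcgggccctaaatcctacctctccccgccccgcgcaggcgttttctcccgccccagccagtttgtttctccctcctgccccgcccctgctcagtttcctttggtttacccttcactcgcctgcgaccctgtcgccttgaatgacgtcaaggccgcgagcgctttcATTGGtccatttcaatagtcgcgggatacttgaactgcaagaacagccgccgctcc
The CCNB1 window is chr5:69166900-69167149 on the plus strand and holds 2 matches, and the CCNA2 window is chr4:121823884-121824133 on the minus strand and holds 1. Both strands were searched in the 27305 promoters of the table, of which 9869 belonged to tested genes, 323 to genes that rose and 271 to genes that fell. TGANTCA was present in 4.64% of promoters of genes that rose and 6.64% of those that fell, against 4.01% of tested genes and 6.6% of all promoters. CCAAT was present in 30% and 27.3%, against 35.3% of tested genes and 33% of all promoters. For the E-box CAGGTG, read by SNAI and ZEB factors, the shares were 22.3% and 19.9%, against 16.3% and 17.5%. For the TEAD motif CATTCC, through which YAP and TAZ act, they were 7.43% and 15.5%, against 9.32% and 11.9%. The E-box letters also occur in the SFTPD and CCNB1 windows, without capitals, and a match describes the letters only.

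At 87.5 mg/kg, 760 of the 12300 tested genes (6.18%) passed an adjusted p of 0.05 against the controls, in limma with Benjamini-Hochberg adjustment. Of these, 400 rose (3.25%) and 360 fell (2.93%), and 225 rose and 193 fell by more than 2-fold. At an unadjusted p under 0.05 there were 2600. A limma fit of the 5 tumours alone gave 158 calls at the adjusted threshold. In all 760 the 3 treated tumours lay on 1 side of both controls, which was also so for 2170 tested genes that were higher (17.6%) and 2093 that were lower (17%). The number of calls was 236 without control replicate 1 and 514 without control replicate 2, and 469, 967 and 779 without replicate 1, 2 or 3 at 87.5 mg/kg. With median scaling, which moved the median difference of all genes from 0.01 to -0.14, 288 rose and 769 fell, and without normalization (median -0.20) 193 rose and 1591 fell. In bulk tumour RNA, fewer cells of a type and less RNA per cell cannot be told apart.

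**Figure D1:**
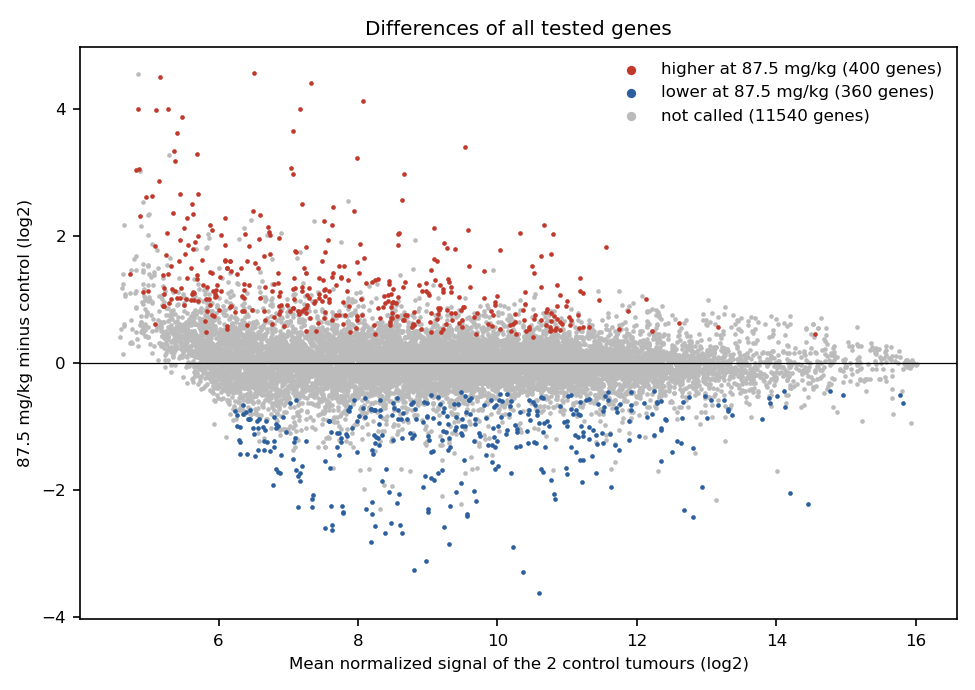
The difference of each of the 12300 tested genes, 87.5 mg/kg minus control on the log2 scale, is plotted against the mean normalized signal of the 2 control tumours on the log2 scale. Points mark the 400 genes that rose, the 360 that fell and those that were not called, and the largest rises reach a log2 difference of 4.57.

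Of the 12 largest rises, SFTPB, SFTPD and SCGB3A1 belong to the list of alveolar and airway secretory genes. Values are normalized log2 signals per tumour, and levels of different probes are not comparable. TESC, which encodes the calcium-binding protein tescalcin, had 11.60, 11.73 and 9.92 at 87.5 mg/kg, against 6.65 and 6.38 in the controls (log2 difference 4.57, SE 0.51, adjusted p = 0.00051). SFTPB, the surfactant protein needed to form the lung's surface film, had 12.81, 12.47 and 11.33, against 8.31 and 7.83 in the controls (4.13, SE 0.36, adjusted p = 9.92e-05). SFTPD, a collectin of the air spaces, had 10.95, 10.52 and 10.67, against 6.89 and 7.24 in the controls (3.65, SE 0.31, adjusted p = 9.75e-05). No treated tumour overlapped a control in these genes, as their choice required, and SFTPD varied least among the treated ones (SD 0.22). SCGB3A1, a secreted airway protein, had 12.35, 9.54 and 13.37, against 7.32 and 7.35 in the controls (4.42, SE 0.82, adjusted p = 0.00985). CHI3L1, a secreted chitinase-like glycoprotein, had 11.19, 11.83 and 10.52, against 7.14 and 7.20 in the controls (4.01, SE 0.50). Replicate 2 was the lowest treated tumour for SCGB3A1 and the highest for CHI3L1. PAEP, a lipocalin known from the endometrium, had 13.24, 14.12 and 11.49, against 9.66 and 9.42 in the controls (3.41, SE 0.76, adjusted p = 0.0249).

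The other 6 of the 12 highest genes were detected in all 3 treated tumours and in neither control, so only a lower bound of the fold is given, with each undetected control signal raised to the lowest signal that passed detection on its array. DAAM2, a formin of Wnt signalling, had 9.24, 9.50 and 8.51, against 4.79 and 5.40 in the controls, and was at least 8.03-fold higher (adjusted p = 9.25e-05). HHATL, a relative of the hedgehog acyltransferase, had 10.52, 10.07 and 8.40, against 5.01 and 5.32, a rise of at least 12-fold with an adjusted p of 0.000384. KIF5C, a kinesin heavy chain of neurons, had 10.34, 9.90 and 7.81, against 5.52 and 5.44, and was at least 9.66-fold higher. In TESC, HHATL and KIF5C replicate 3 was the lowest treated tumour, yet above both controls. OBP2A, a lipocalin whose probe cannot be told from its near-identical copy OBP2B with certainty, had 9.38, 11.10 and 7.36, against 5.28 and 5.26, and was at least 9.21-fold higher. GNLY, a granule protein of cytotoxic lymphocytes, had 9.62, 8.77 and 8.11, against 4.74 and 4.94, and was at least 6.77-fold higher. Of the other 11 lymphocyte markers, CD3D, CD3E, MS4A1, NKG7, GZMA, GZMB, PRF1 and KLRD1 were detected on none of the 5 arrays. Without GNLY, the summed signal of the 11 markers was 491, 599 and 492 at 87.5 mg/kg, against 551 and 552 in the controls, and so was not higher in every treated tumour. NEB, the thin-filament protein of muscle, had 10.55, 8.65 and 7.89, against 5.58 and 5.24, and was at least 7.75-fold higher. Without NEB, the summed signal of the other 10 skeletal muscle markers was 4974, 1508 and 1583 at 87.5 mg/kg against 1463 and 1240 in the controls, with MYH1, MYH2, TNNC2, TTN and DES undetected, and its part in the value of NEB was not tested. Without control replicate 1 the calls ended for SCGB3A1 (adjusted p = 0.0813), OBP2A (0.157), KIF5C (0.0662), NEB (0.0512) and PAEP (0.141). Without control replicate 2 they ended for SCGB3A1 (0.0508), OBP2A (0.10) and PAEP (0.111), and without replicate 1 at 87.5 mg/kg for OBP2A (0.0683) and PAEP (0.074).

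**Figure D2:**
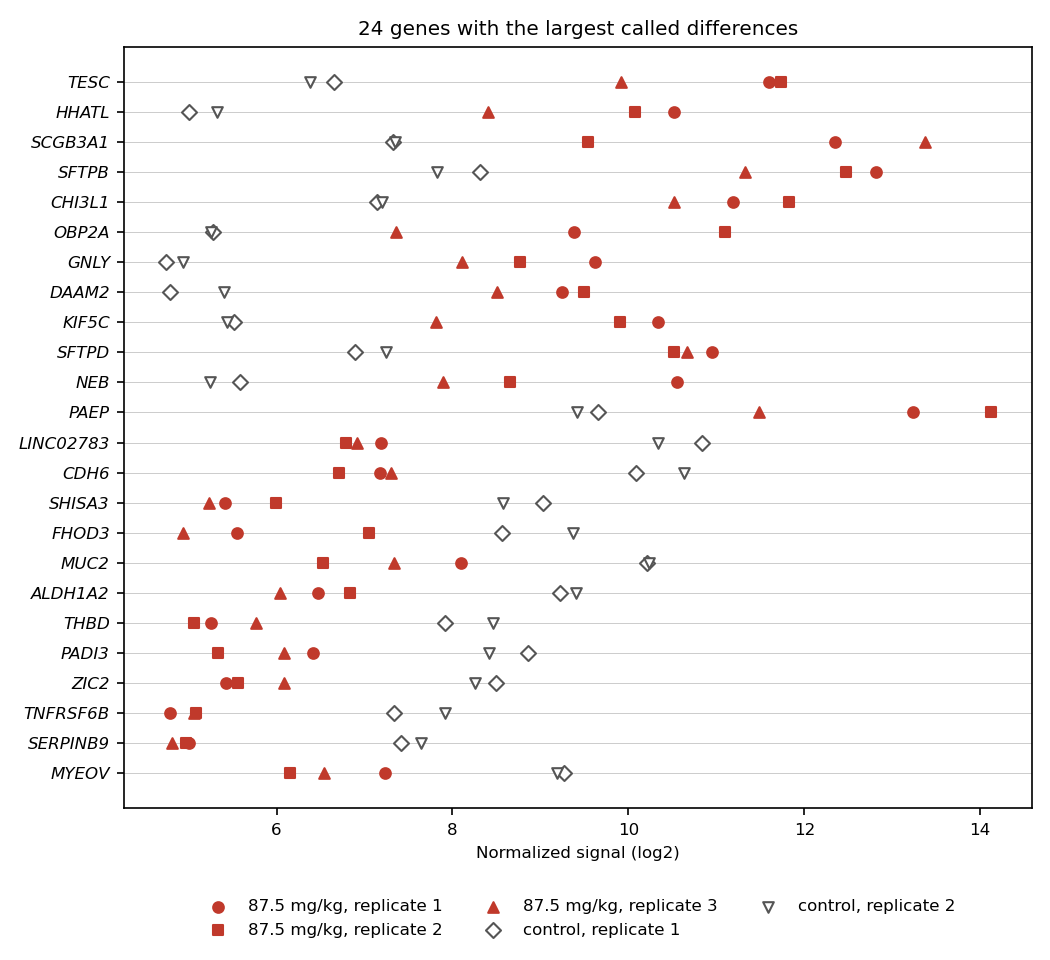
Normalized signals on the log2 scale are shown for the 12 genes with the largest called rises (top) and the 12 with the largest called falls (below), with 1 filled point per tumour at 87.5 mg/kg and 1 open point per control. The 2 groups overlap in no gene, which was a condition of the choice, and the treated points of SCGB3A1 and OBP2A spread more than those of SFTPD.

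The 12 largest falls were spread over genes of adhesion, retinoid and Wnt signalling, mucins and surface receptors. LINC02783, a long noncoding RNA, had 7.19, 6.79 and 6.92 at 87.5 mg/kg, against 10.84 and 10.34 in the controls (log2 difference -3.63, SE 0.31, adjusted p = 0.000103). CDH6, a classical cadherin of kidney and embryo, had 7.18, 6.71 and 7.30, against 10.09 and 10.63 in the controls (-3.30, SE 0.35, adjusted p = 0.000376). ALDH1A2, which makes retinoic acid, had 6.47, 6.84 and 6.04, against 9.22 and 9.40 in the controls (-2.86, SE 0.26, adjusted p = 0.000124). The treated tumours lay close together in these genes and at least 2 log2 units below the lower control. MUC2, a gel-forming mucin of the intestine, had 8.10, 6.53 and 7.34, against 10.21 and 10.24 in the controls (-2.90, SE 0.39). PADI3, which converts arginine to citrulline in hair and skin proteins, had 6.41, 5.34 and 6.08, against 8.86 and 8.41 in the controls (-2.69, SE 0.39). FHOD3, a formin of the sarcomere, had 5.55, 7.05 and 4.94 and was detected only in replicate 2 among the treated tumours, against 8.56 and 9.37 in the controls (-3.12, SE 0.47). Its call ended in a limma fit of the 5 tumours alone (adjusted p = 0.0896). MYEOV had 7.23, 6.15 and 6.54, against 9.27 and 9.19 in the controls (-2.59, SE 0.34).

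In 5 of the 12 largest falls no treated tumour reached detection. SHISA3, which retains Wnt and FGF receptors inside the cell, had 5.41, 5.99 and 5.23, against 9.03 and 8.57 in the controls, and was at least 6.53-fold lower (adjusted p = 6.31e-05). ZIC2, a zinc finger factor of the neural plate, had 5.43, 5.56 and 6.09, against 8.50 and 8.26, and was at least 4.87-fold lower. THBD, the endothelial thrombin receptor thrombomodulin, had 5.25, 5.06 and 5.77, against 7.92 and 8.46, and was at least 4.27-fold lower. The treated tumours lay within 1 log2 unit of each other in all 3. TNFRSF6B, a decoy receptor for FAS ligand, had 4.79, 5.09 and 5.06, against 7.33 and 7.91, and was at least 2.88-fold lower (adjusted p = 2.58e-05). SERPINB9, an inhibitor of granzyme B, had 5.01, 4.97 and 4.81, against 7.41 and 7.64, and was at least 2.70-fold lower (adjusted p = 2.99e-05). All 12 of these falls kept their call whichever of the 5 tumours was left out.

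Of 15 tested genes named by the study's question, 1 rose and 4 fell (33.3% called, beside 6.18% of all genes, median -0.52). BCL2, the survival protein of the mitochondrial membrane, had 9.75, 9.56 and 9.90 at 87.5 mg/kg, against 7.77 and 7.25 in the controls, and rose (log2 difference 2.23, SE 0.27, adjusted p = 0.000894). CDH2, the N-cadherin of mesenchymal cells, had 10.41, 9.59 and 11.11, against 13.00 and 12.61 in the controls, and fell by 2.43 (SE 0.36, adjusted p = 0.00272). SNAI2, a driver of epithelial-mesenchymal transition, had 4.78, 5.08 and 4.70 with no treated tumour detected, against 6.25 and 7.31 in the controls, and was at least 1.61-fold lower (adjusted p = 0.000985). CDH2 and SNAI2 were thus lower at 87.5 mg/kg, as was the epithelial cadherin, by less than CDH2, and a link between these falls was not tested. In a limma fit of the 5 tumours alone the calls of CDH2 and SNAI2 ended (adjusted p = 0.0697 and 0.0585). CDH1, the E-cadherin of epithelial junctions, had 13.33, 13.16 and 13.49, against 13.89 and 13.89 in the controls (-0.56, SE 0.15, adjusted p = 0.0435). MET, the receptor of hepatocyte growth factor, had 10.78, 11.07 and 11.12, against 11.75 and 11.65 in the controls (-0.71, SE 0.16, adjusted p = 0.0266). The calls of CDH1 and MET ended without control replicate 1 (adjusted p = 0.213 and 0.189), control replicate 2 (0.154 and 0.0824) or replicate 1 at 87.5 mg/kg (0.101 and 0.0798), and that of CDH1 also without replicate 2 (0.0767).

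ALK itself had 12.55, 13.14 and 11.24 at 87.5 mg/kg, against 11.44 and 11.73 in the controls, with replicate 3 below both controls (0.72, SE 0.44, adjusted p = 0.381). Without replicate 3 it passed, with a log2 difference of 1.26 and an adjusted p of 0.0305. EML4, its fusion partner, had 12.83, 12.99 and 12.76, against 12.81 and 12.82 in the controls (0.05, SE 0.14, adjusted p = 0.878). Vimentin (VIM), the filament protein of mesenchymal cells, had 10.04, 10.19 and 10.10, against 10.66 and 10.96, below both controls without passing (-0.70, SE 0.29, adjusted p = 0.184). HDAC1, a histone deacetylase, had 13.23, 13.12 and 13.31, against 13.98 and 13.50 (-0.52, SE 0.14, adjusted p = 0.0558). HDAC1 lay near the threshold and passed under median scaling and without control replicate 2, among other settings. HDAC2, ZEB2, TWIST1, AXL and EGFR did not pass (adjusted p from 0.226 to 0.989, and 0.0231 for EGFR without replicate 2), CDC20B, whose gene hosts the miR-449 cluster, was detected on none of the 5 arrays, and ZEB1 and SNAI1 did not pass the detection filter.

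Over all tested genes 3.25% rose and 2.93% fell (6.18% called), to be read beside the counts of each list below. Of 18 tested alveolar and airway secretory genes, of 28 listed, 6 rose and 1 fell (38.9% called), with a median log2 difference of 0.88 beside 0.01 for all genes. Next to SFTPB, SFTPD and SCGB3A1, these were enzymes and a transporter of surfactant metabolism. CTSH, a protease that processes surfactant protein B, had 13.05, 12.62 and 12.89 at 87.5 mg/kg, against 10.60 and 10.75 in the controls (2.18, SE 0.21, adjusted p = 0.000186). ABCA3, which loads surfactant lipid into lamellar bodies, had 10.26, 10.16 and 9.92, against 9.05 and 8.91 in the controls (1.13, SE 0.18, adjusted p = 0.00481). LPCAT1, which makes surfactant phosphatidylcholine, had 11.30, 11.53 and 11.14, against 10.46 and 10.33 in the controls (0.93, SE 0.14, adjusted p = 0.00384). All 3 had treated tumours within 0.5 log2 units of each other. The member that fell was MUC5B, a gel-forming airway mucin, with 5.43, 5.73 and 5.5 and no detection at 87.5 mg/kg, against 6.43 and 6.44 in the controls, and it was at least 1.27-fold lower (adjusted p = 0.0366). Its call ended without control replicate 1 (0.189), control replicate 2 (0.136), or replicate 1 (0.104) or 3 (0.0708) at 87.5 mg/kg. SFTPA1, the most abundant surfactant collectin, did not pass, with 9.32, 11.72 and 7.79 against 7.32 and 7.43 (2.24, SE 0.91, adjusted p = 0.18, and 0.0381 without replicate 3). NAPSA, a surfactant-processing protease, had 12.74, 12.65 and 12.69, against 11.86 and 11.85 (0.84, SE 0.27, adjusted p = 0.094). Leaving out any 1 tumour left 5 to 7 members that rose and 0 or 1 that fell. Of the lung and endoderm transcription factors, 1 rose and 1 fell of 23 (8.7% called, near the 6.18% of all genes). NKX2-1, the master regulator of surfactant genes, had 13.05, 12.83 and 13.43 against 12.54 and 12.67 (0.50, SE 0.18, adjusted p = 0.127, and 0.0482 without replicate 2). The pair that passed was ID3, an inhibitor of helix-loop-helix factors (at least 2.45-fold higher), and HNF4G, a nuclear receptor (at least 1.98-fold lower), and both calls ended without control replicate 1 (adjusted p = 0.18 and 0.263) or replicate 1 at 87.5 mg/kg (0.0853 and 0.0903), that of ID3 also without control replicate 2 (0.197).

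**Figure D3:**
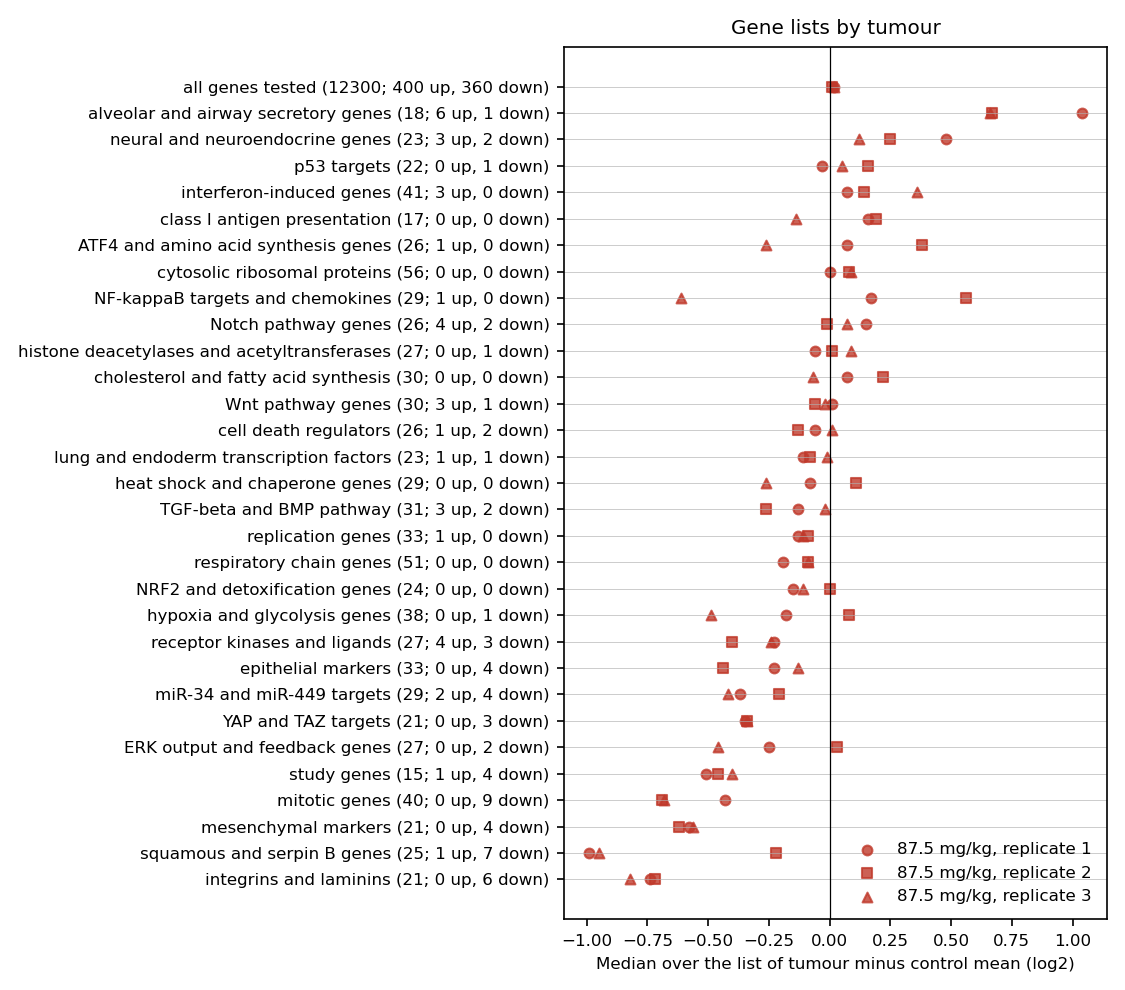
For each gene list with at least 15 tested genes, the median over its genes of tumour minus control mean is plotted on the log2 scale, with 1 symbol per tumour at 87.5 mg/kg. The number of tested genes and of genes that rose or fell stands beside each name, and the secretory genes have all 3 of their symbols above 0, those of the integrins and laminins lie between -0.82 and -0.72, and the symbols for NF-kappaB targets lie from -0.61 to 0.56.

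Of 21 tested integrin, laminin and anchoring genes, 0 rose and 6 fell (28.6% called, beside 6.18% of all genes, median -0.91). Below both controls lay 13 of them, beside 17% of all genes. ITGA5, the fibronectin receptor subunit, had 8.53, 8.59 and 8.13 at 87.5 mg/kg, against 9.61 and 9.70 in the controls (-1.24, SE 0.20, adjusted p = 0.00489). ITGB4, which anchors hemidesmosomes, had 9.53, 8.96 and 9.55, against 10.54 and 10.82 in the controls (-1.33, SE 0.22, adjusted p = 0.00537). COL7A1, the anchoring fibril collagen, had 9.54, 8.35 and 8.39, against 10.69 and 10.94 in the controls (-2.06, SE 0.42, adjusted p = 0.0159). The other called members were ITGA2 (-1.30), LAMB1 (-1.21) and LAMC1 (-0.64), subunits of the collagen receptor and of laminins. A fit of the 5 tumours alone left 0 of the list called (adjusted p = 0.0509 for ITGA5 and 0.0697 for ITGB4 in limma). Without either control 2 of the list passed, and without replicate 1 at 87.5 mg/kg 4 passed. The calls of ITGA5 and ITGB4 held whichever of the 5 tumours was left out, and the other 4 did not.

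Mesenchymal and epithelial markers both fell where they passed. Of 21 mesenchymal markers, 0 rose and 4 fell (19% called, median -0.64). Beside CDH2 these were COL5A1, a fibrillar collagen chain (-2.31, SE 0.40, adjusted p = 0.00697), FHL2, a LIM-domain cofactor (-2.05, SE 0.49, adjusted p = 0.0329), and CDH11, a cadherin of mesenchyme (-1.10, SE 0.27, adjusted p = 0.0368). FHL2 had 11.91, 12.85 and 11.69 at 87.5 mg/kg, against 14.29 and 14.11 in the controls, without overlap. Among 9 tested factors that drive the transition only SNAI2 passed. Of 33 epithelial markers, 0 rose and 4 fell (12.1% called, median -0.25), which were CDH1, the desmosomal cadherins DSC2 (-1.68, SE 0.37, adjusted p = 0.0239) and DSG2 (-0.82, SE 0.16, adjusted p = 0.0112), and CDS1, an enzyme of phospholipid synthesis (-0.75, SE 0.15, adjusted p = 0.0142). DSC2 had 8.71, 8.76 and 9.36 at 87.5 mg/kg, against 11.22 and 10.03 in the controls, which themselves lay more than 1 log2 unit apart. Without control replicate 1 the median was -0.79 for the mesenchymal and -0.12 for the epithelial markers. Without control replicate 2 it was -0.4 and -0.35. A limma fit of the 5 tumours alone left 0 of either list called. In the full fit 9 of the 33 epithelial markers had an unadjusted p under 0.05, beside 2600 of all 12300 tested genes.

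Squamous and serpin B genes fell in 7 of 25 tested members and rose in 1 (32% called, median -0.76). SPRR3, a precursor of the cornified envelope, had 5.0, 5.05 and 6.22 at 87.5 mg/kg, against 7.66 and 7.89 in the controls (-2.35, SE 0.37, adjusted p = 0.00386). KRT14, the basal keratin, was detected in no treated tumour, with 5.82, 5.21 and 5.01 against 6.90 and 8.31, and was at least 2.85-fold lower (adjusted p = 0.00408). S100A8, a calcium-binding protein of inflamed epithelium, was at least 1.34-fold lower (adjusted p = 0.000757). The other falls were PADI3, SPRR1B (-1.46), S100A2 (-1.23) and SERPINB1 (-0.76). CALML3, an epithelial calmodulin, went the other way, with 10.26, 9.50 and 10.58 at 87.5 mg/kg against 7.37 and 6.71 in the controls (3.07, SE 0.36, adjusted p = 0.000833). By tumour, the list medians were -0.99, -0.22 and -0.95, with replicate 2 nearest to the controls. The calls of SPRR1B, S100A2 and SERPINB1 ended without control replicate 1 (adjusted p = 0.141, 0.248 and 0.267). Leaving out 1 tumour left 4 (without control replicate 1) to 9 (without replicate 2 at 87.5 mg/kg) members that fell.

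Among 27 tested receptor kinases, ligands and adaptors, 4 rose and 3 fell (25.9% called, median -0.23). KIT, the stem cell factor receptor, had 9.96, 9.67 and 9.78 at 87.5 mg/kg, against 7.83 and 7.44 in the controls (2.17, SE 0.31, adjusted p = 0.0024). RET, the receptor of glial neurotrophic factors, had 8.52, 7.47 and 8.02, against 6.41 and 5.40 in the controls (2.10, SE 0.39, adjusted p = 0.0103). HBEGF, a ligand of the EGF receptor, had 9.81, 10.15 and 8.76, against 7.68 and 8.30 in the controls (1.59, SE 0.38, adjusted p = 0.0341). The fourth rise was EGF, with a log2 difference of 1.23 (adjusted p = 0.0448), and the 3 falls were MET, the insulin receptor substrate IRS1 (-1.21, SE 0.18, adjusted p = 0.0031) and FGFR3 (-1.95, SE 0.51, adjusted p = 0.0447). EGFR, the receptor of EGF, had 9.76, 10.82 and 9.32, against 10.76 and 10.75 (-0.79, adjusted p = 0.251), with replicate 2 above both controls and the others below. Without replicate 2 it passed (adjusted p = 0.0231). Without control replicate 2, 1 rose and 1 fell, and without control replicate 1 or replicate 1 at 87.5 mg/kg, 2 rose and 1 fell. The calls of EGF and FGFR3 ended without control replicate 1 (adjusted p = 0.31 and 0.192), control replicate 2 (0.0896 and 0.177) or replicate 1 at 87.5 mg/kg (0.0541 and 0.114), and that of FGFR3 also without replicate 2 (0.079). The call of RET ended without control replicate 2 (adjusted p = 0.0866), and that of HBEGF without control replicate 1 (0.271), control replicate 2 (0.0593), or replicate 1 (0.101) or 2 (0.0631) at 87.5 mg/kg. Of 27 output and feedback genes of the ERK pathway, 0 rose and 2 fell (7.41% called, near the 6.18% of all genes). They were the phosphatase DUSP5 (-1.74, SE 0.34, adjusted p = 0.0137) and the inhibitor SPRY2 (-0.69, SE 0.14, adjusted p = 0.0165). DUSP5 had 9.69, 10.26 and 9.08 at 87.5 mg/kg, against 11.03 and 11.79 in the controls, and its call ended without control replicate 2 (adjusted p = 0.108). The call of SPRY2 ended without control replicate 1 (0.139), control replicate 2 (0.061) or replicate 1 at 87.5 mg/kg (0.054).

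Of 26 cell death regulators, BCL2 rose and 2 fell (11.5% called, beside 6.18% of all genes). BID, which links death receptors to mitochondria, had 10.12, 10.06 and 10.28 at 87.5 mg/kg, against 11.42 and 11.44 in the controls (-1.28, SE 0.18, adjusted p = 0.00173). PMAIP1, the BH3-only protein NOXA, had 8.76, 9.63 and 8.59, against 10 and 10.23 in the controls (-1.12, SE 0.30, adjusted p = 0.0487). PMAIP1 passed narrowly, and its call ended without either control (adjusted p = 0.182 and 0.204), replicate 1 (0.137) or replicate 3 (0.106) at 87.5 mg/kg. Of 29 listed targets of the miR-34 and miR-449 seed, 2 rose (BCL2 and KIT) and 4 fell (20.7% called), with a median of -0.28. CAV1, the coat protein of caveolae, had 7.27, 7.11 and 6.83, against 8.96 and 9.69 in the controls (-2.26, SE 0.41, adjusted p = 0.0093). FUT8, a core fucosyltransferase, had 10.03, 10.70 and 10.22, against 11.24 and 11.51 in the controls (-1.06, SE 0.21, adjusted p = 0.0125). The other falls were CCNB1 and MET, so the listed targets that passed moved both ways. Without control replicate 1, 1 target fell, and without control replicate 2, 2 fell, among which CAV1 was not (adjusted p = 0.0749).

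Of 26 tested genes of the Notch pathway, 4 rose and 2 fell (23.1% called, median 0.02). HEY2, a repressor induced by Notch, had 10.46, 10.18 and 9.46 at 87.5 mg/kg, against 7.45 and 6.67 in the controls (2.98, SE 0.30, adjusted p = 0.000294). HEYL, of the same family, had 8.95, 9.17 and 9.0, against 8.15 and 7.93 in the controls (1.00, SE 0.13, adjusted p = 0.00123). HES6, which opposes HES1, had 12.49, 12.03 and 12.45, against 11.27 and 11.09 in the controls (1.14, SE 0.17, adjusted p = 0.00347). HES2 rose as well (1.60, adjusted p = 0.0341), while HEY1, the third HEY repressor, fell by 0.84 (adjusted p = 0.02) and the ligand JAG2 by 0.67 (adjusted p = 0.0496). The call of JAG2 ended without control replicate 1 (0.314), control replicate 2 (0.106), or replicate 1 (0.116) or 3 (0.0938) at 87.5 mg/kg. The calls of HES2 and HEY1 ended without control replicate 1 (adjusted p = 0.219 and 0.188) or replicate 1 at 87.5 mg/kg (0.0925 and 0.0648), and that of HES2 also without control replicate 2 (0.0958) or replicate 2 at 87.5 mg/kg (0.0654).

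Of 30 Wnt pathway genes, 3 rose and 1 fell (13.3% called, median 0.00). DKK1, a secreted Wnt antagonist, had 6.62, 6.98 and 7.82 at 87.5 mg/kg, against 9.50 and 9.62 in the controls (-2.42, SE 0.35, adjusted p = 0.0024). AXIN2, a feedback target of beta-catenin, had 8.77, 8.43 and 9.23, against 7.77 and 7.24 in the controls (1.31, SE 0.26, adjusted p = 0.0134). Next to AXIN2 and DAAM2 the receptor FZD2 rose (0.89, SE 0.22, adjusted p = 0.0397). Without control replicate 2 the calls of AXIN2 (adjusted p = 0.104) and FZD2 (0.18) ended, and that of FZD2 also without control replicate 1 (0.152), replicate 1 (0.104) or replicate 2 (0.0717) at 87.5 mg/kg. In the TGF-beta and BMP pathway, 3 rose and 2 fell of 31 (16.1% called). SMAD3, the transducer of TGF-beta signals, had 11.26, 10.95 and 11.85 at 87.5 mg/kg, against 12.64 and 12.61 in the controls (-1.27, SE 0.24, adjusted p = 0.00995). Its receptor TGFBR2 fell by 0.91 (SE 0.18, adjusted p = 0.0134), and the rises were ID3, SMAD5 (0.57) and the receptor ACVR1B (0.55), whose 2 probes differed in sign (-0.08 and 0.55). The median of this list was -0.09 in the full fit and -0.19 without control replicate 1. A limma fit of the 5 tumours alone left 0 members called. In the full fit 12 of the 31 had an unadjusted p under 0.05, beside 2600 of all 12300 tested genes.

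Of 21 YAP and TAZ targets, 0 rose and 3 fell (14.3% called, median -0.29), which were CRIM1, a cysteine-rich membrane protein (-1.65, SE 0.26, adjusted p = 0.00408), the ectonucleotidase NT5E (-1.54, SE 0.33, adjusted p = 0.0193) and tissue factor, F3 (-1.53, SE 0.37, adjusted p = 0.0338). NT5E had 10.18, 10.74 and 11.47 at 87.5 mg/kg, against 12.18 and 12.49 in the controls. The treated tumours of NT5E were all below the controls, with replicate 3 nearest to them. Its call and that of F3 ended without control replicate 1 (adjusted p = 0.086 and 0.113) or control replicate 2 (0.111 and 0.177), and that of F3 also without replicate 1 (0.0774) or replicate 3 (0.0678) at 87.5 mg/kg. Of 23 neural and neuroendocrine genes, 3 rose and 2 fell (21.7% called, median 0.36). MAPT, the microtubule protein tau, had 8.90, 9.34 and 8.30 at 87.5 mg/kg, against 6.71 and 6.71 in the controls (2.14, SE 0.27, adjusted p = 0.00103). SCG5, a chaperone of prohormone convertase, had 11.61, 11.30 and 10.74, against 9.01 and 9.17 in the controls (2.13, SE 0.26, adjusted p = 0.000938). KIF5C was the third rise, and the falls were ZIC2 and the neural factor POU3F2 (-2.38, SE 0.63, adjusted p = 0.0476), whose call ended without either control, replicate 1 or replicate 3 at 87.5 mg/kg (adjusted p = 0.232, 0.154, 0.115 and 0.0722).

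Of 40 mitotic genes, 0 rose and 9 fell (22.5% called, beside 6.18% of all genes, median -0.59). All 40 had a negative difference, between -1.25 and -0.01, and 27 lay below both controls, beside 17% of all genes. A fit of the 5 tumours alone left 0 mitotic genes called. CCNB1, the cyclin that starts mitosis, had 9.74, 8.75 and 9.33 at 87.5 mg/kg, against 10.68 and 10.38 in the controls (-1.25, SE 0.26, adjusted p = 0.0175). CCNA2, the cyclin of S and G2 phase, had 9.87, 9.35 and 9.71, against 10.74 and 10.45 in the controls (-0.95, SE 0.19, adjusted p = 0.0134). CDC25C, the phosphatase that activates CDK1, had 8.95, 7.98 and 8.83, against 9.90 and 9.59 in the controls (-1.16, SE 0.26, adjusted p = 0.0248). Replicate 2 was the lowest tumour for these 3 genes, and the CCNB1 and CCNA2 promoters with their CCAAT boxes are those shown above. The other calls were ANLN (-1.01), TPX2 (-0.92), PLK1 (-0.84), CDK1 (-0.82), SPC25 (-0.70) and BUB1B (-0.67), all of spindle, entry or cell division. The list's median was -0.37 without control replicate 1 and -0.80 without control replicate 2. In the full fit 26 of the 40 had an unadjusted p under 0.05, beside 2600 of all 12300 tested genes. MKI67, the proliferation antigen, had 8.65, 7.61 and 8.18, against 8.71 and 8.52 (-0.46, SE 0.25, adjusted p = 0.334). Of 33 replication genes, 1 rose and 0 fell (median -0.11), and it was POLD1, the catalytic subunit of DNA polymerase delta (0.65, SE 0.14, adjusted p = 0.0206), whose call ended without control replicate 1 (adjusted p = 0.183), control replicate 2 (0.0529) or replicate 1 at 87.5 mg/kg (0.0638).

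Several programmes gave no call. By limma, 0 of 56 cytosolic ribosomal protein genes, 51 respiratory chain genes, 30 genes of cholesterol and fatty acid synthesis, 29 chaperone genes, 24 NRF2 and detoxification genes and 17 class I antigen presentation genes passed. At an unadjusted p under 0.05 the counts were 5, 4, 2, 1, 8 and 1, beside 2600 of all 12300 tested genes. Their medians lay between -0.15 and 0.07, and signs this near 0 turned for some lists under median scaling or without normalization. Without normalization 15 respiratory chain genes, 6 NRF2 genes, 2 genes of cholesterol and fatty acid synthesis, 2 of class I presentation and 1 ribosomal protein gene passed as lower, and under median scaling 2 respiratory chain genes, 3 NRF2 genes and 1 class I gene did. The NRF2 list was wider than its median shows, with ALDH1A1, a retinal dehydrogenase, at 7.82, 5.93 and 7.59 against 9.94 and 8.48 in the controls (-2.10, SE 0.58, adjusted p = 0.0567, and 0.0451 without control replicate 2). Of 38 hypoxia and glycolysis genes 1 fell, the carbonic anhydrase CA12, which was detected in no treated tumour and was at least 1.69-fold lower (adjusted p = 0.000131). SLC2A1, the main glucose carrier, had 11.96, 12.51 and 11.63, against 13.11 and 13.41 (-1.23, SE 0.37, adjusted p = 0.0739, and 0.0401 without replicate 2). Of 22 p53 targets, PLK2 fell (-1.27, 4.55% of the list called), and of 26 ATF4 and amino acid genes, PYCR1 of proline synthesis rose (1.03, 3.85%). Both shares lay below the 6.18% of all genes. Of 27 histone deacetylase and acetyltransferase genes, EP300 fell (-0.80, SE 0.18, adjusted p = 0.0247), with 8.73, 8.82 and 8.88 at 87.5 mg/kg against 9.61 and 9.60 in the controls. The calls of PLK2, PYCR1 and EP300 ended without control replicate 1 (adjusted p = 0.133, 0.152 and 0.16), control replicate 2 (0.0686, 0.185 and 0.0958) or replicate 1 at 87.5 mg/kg (0.0579, 0.108 and 0.0724), and that of PYCR1 also without replicate 2 (0.064).

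Of 41 interferon-induced genes 3 rose and 0 fell (7.32% called, beside 6.18% of all genes, median 0.12): IFI30, a lysosomal thiol reductase (1.14, SE 0.19, adjusted p = 0.00584), OAS3, an antiviral oligoadenylate synthetase (0.78, SE 0.16, adjusted p = 0.016), and LGALS3BP (0.51, SE 0.13, adjusted p = 0.0428). The last 2 calls ended without control replicate 1 (adjusted p = 0.123 and 0.187) or control replicate 2 (0.0663 and 0.174), and that of LGALS3BP also without replicate 1 (0.122) or replicate 3 (0.0655) at 87.5 mg/kg. A limma fit of the 5 tumours alone left 0 interferon-induced genes called (adjusted p = 0.107 for IFI30). Of 6 genes of class II presentation the protease CTSS rose (1.02, SE 0.15, adjusted p = 0.00304). It had 7.18, 7.48 and 7.47 at 87.5 mg/kg, against 6.42 and 6.29 in the controls. In the fit of the 5 tumours alone the call of CTSS ended (adjusted p = 0.0565). Among 4 tested macrophage markers the scavenger receptor CD163 rose, at least 1.27-fold (adjusted p = 0.0163), and the call ended without control replicate 1 (0.184) or replicate 1 at 87.5 mg/kg (0.0541). Without CD163, the summed signal of the macrophage list was 8308, 5972 and 7643 at 87.5 mg/kg, against 4238 and 7252 in the controls, and CSF1R, TYROBP, FCER1G, ITGAM and PTPRC were detected on no array of the 5. For fibroblast markers the sums were 1281, 1648 and 1156, against 2068 and 2030, with COL3A1, PDGFRA, PDGFRB, THY1 and POSTN undetected. The sums thus ran lower than the controls for fibroblast markers, the direction of COL5A1 and CDH11, and their part in the fall of mesenchymal markers was not tested. Endothelial markers summed to 1233, 1112 and 1283, against 890 and 834, with TEK, TIE1, CLDN5, EMCN, ERG and ENG undetected. Fat cell markers summed to 4665, 3220 and 3096, against 1650 and 4562, with ADIPOQ, PLIN1 and FABP4 undetected. In the chosen fit 0 of 4 tested endothelial and 0 of 3 tested fat cell markers passed.

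Some genes were nearly identical in the 3 treated tumours. Among called genes beyond 2-fold, the 6 with the smallest SD were ACER3, ABHD1, GPRC5C, NXN, CDH3 and SHE. ACER3, an alkaline ceramidase, had 9.08 in each of the 3 tumours at 87.5 mg/kg, against 10.21 and 10.07 in the controls (-1.06, SE 0.16, adjusted p = 0.00382). CDH3, the P-cadherin of basal epithelium, had 9.96, 9.98 and 10.03, against 11.15 and 11.18 in the controls (-1.17, SE 0.20, adjusted p = 0.00593). SHE, an adaptor with an SH2 domain, had 10.62, 10.57 and 10.64, against 9.49 and 9.10 in the controls (1.32, SE 0.18, adjusted p = 0.00184). Without control replicate 1 the adjusted p of CDH3 was 0.0524. GPRC5C, an orphan receptor, had 10.36, 10.41 and 10.41, against 11.30 and 11.69 in the controls (-1.10), and NXN, a thioredoxin-like enzyme, had 8.35, 8.28 and 8.33, against 6.93 and 7.65 (1.03). Both lost their calls without control replicate 1 (adjusted p = 0.0735 and 0.211) or replicate 1 at 87.5 mg/kg (0.0684 and 0.0576), and GPRC5C also without control replicate 2 (0.156). ABHD1, a hydrolase, had 6.51, 6.5 and 6.47, against 5.63 and 5.02 with no control detected, and was at least 1.34-fold higher (adjusted p = 0.0297). Its call ended without control replicate 1 (0.0524), control replicate 2 (0.193), or replicate 1 (0.076) or 3 (0.0514) at 87.5 mg/kg.

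Over all genes the tumours at 87.5 mg/kg varied more among themselves than those of the other groups. The median SD per gene was 0.226 log2 units (n = 3), against 0.177 at 75 mg/kg (n = 4), 0.170 at 100 mg/kg (n = 3) and 0.125 in the controls (n = 2), as a description with no test. The median SD depends on the number of tumours, so only the 100 mg/kg group is a like comparison. An SD over 1 was found for 226 genes (1.84%), against 28, 62 and 139. Replicate 2 contributed most: the median SD of the remaining 2 tumours was 0.146 without it, against 0.214 without replicate 1 and 0.203 without replicate 3. In the same order 113, 439 and 218 genes exceeded 1. Replicate 2 lay more than 1 log2 unit beyond both other treated tumours in 425 genes (220 above, 205 below), while replicate 3 did so in 173 (32 above, 141 below) and replicate 1 in 63 (56 above, 7 below). Replicates 2 and 3 differed by more than 1 log2 unit in 1015 genes, replicates 1 and 2 in 669 and replicates 1 and 3 in 320, and the controls in 280.

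**Figure D4:**
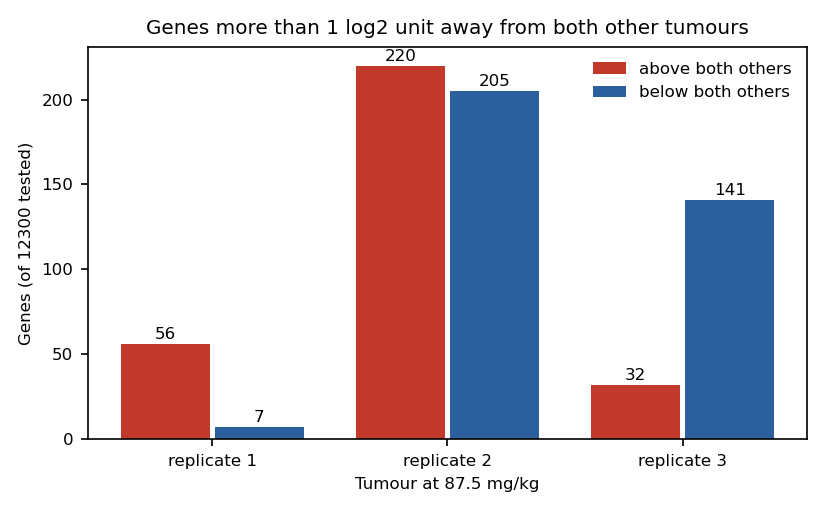
For each tumour at 87.5 mg/kg, bars give the number of the 12300 tested genes whose log2 signal lay more than 1 unit above, or below, both other tumours of that dose. Replicate 2 has 220 and 205 such genes, replicate 3 mostly lower ones (141) and replicate 1 mostly higher ones (56).

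The 10 genes with the widest spread included muscle and neuronal genes. ATP2A1, the calcium pump of fast muscle, had 13.09, 9.75 and 5.35 at 87.5 mg/kg, against 4.78 and 4.92 in the controls. MYL1, a light chain of fast muscle myosin, had 11.73, 8.69 and 5.31, against 5.14 and 5.45 in the controls. Both were highest in replicate 1, as was the summed signal of the 10 muscle markers other than MYL1 (3088, 1498 and 1781, against 1476 and 1234 in the controls). VGF, a neuropeptide precursor, had 13.71, 10.51 and 6.98, against 7.81 and 7.90 in the controls. SYT4, a synaptotagmin of secretory vesicles, had 9.33, 6.32 and 4.78, against 4.64 and 4.65. Replicate 1 was also more than 2 log2 units above both other treated tumours for the granin SCG3 and the synaptic protein SNAP25. RTN1, a reticulon of neuroendocrine cells, had 8.43, 10.28 and 4.96, against 5.0 and 4.73 in the controls. NPTX1, a neuronal pentraxin, had 11.97, 7.32 and 13.01, against 9.74 and 7.91. None of ATP2A1, MYL1, VGF, SYT4, RTN1 and NPTX1 passed against the controls (adjusted p from 0.126 to 0.503). Without replicate 3 ATP2A1 (0.00455), MYL1 (0.00542) and RTN1 (0.041) passed, and without replicate 2 NPTX1 (0.0105) did.

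**Figure D5:**
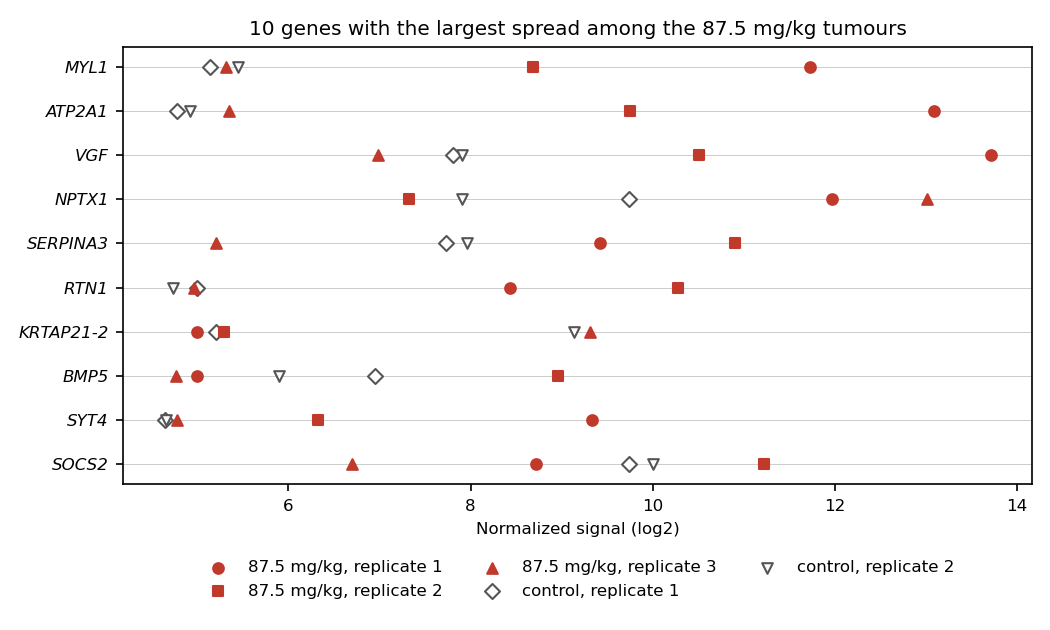
Normalized log2 signals are shown for the 10 genes with the largest SD among the 3 tumours at 87.5 mg/kg (filled points) beside the 2 controls (open points). The treated tumours span from 5.35 to 13.09 for ATP2A1, and KRTAP21-2 is high in replicate 3 and in control replicate 2 alone.

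Others were highest in replicate 2. BMP5, a bone morphogenetic protein, had 4.99, 8.96 and 4.77 at 87.5 mg/kg, against 6.95 and 5.90 in the controls. SOCS2, a feedback inhibitor of cytokine receptors, had 8.72, 11.22 and 6.70, against 9.74 and 10. Without replicate 2 SOCS2 passed (adjusted p = 0.0414). SERPINA3, an acute-phase protease inhibitor, had 9.42, 10.90 and 5.20, against 7.73 and 7.96, so that replicate 2 was highest and replicate 3 lowest in SOCS2 and SERPINA3. The same order held for the median of 29 NF-kappaB targets and chemokines, at 0.17, 0.56 and -0.61 for the 3 tumours relative to the controls' mean. Replicate 2 was more than 1 log2 unit above both others in 9 of these, beside 220 of all 12300 genes. Replicate 3 was as far below both in 6, beside 141 of all genes. Against the controls 3.45% of this list was called, beside 6.18% of all genes. CXCL8, the neutrophil chemokine interleukin 8, had 11.95, 13.43 and 11.15, against 12.46 and 12.82 in the controls, and CCL20 had 10.62, 12.32 and 9.24, against 9.97 and 10.93. One member of the list rose, TNFAIP2 (1.20, SE 0.23, adjusted p = 0.0133), with 10.98, 11.05 and 10.38 against 9.51 and 9.70, and its call ended without control replicate 1 (0.129). Replicate 2 was also high for LUM, a proteoglycan of fibroblasts, with 7.21, 9.58 and 7.08, against 9.69 and 9.58 in the controls. Without that tumour LUM passed as lower (adjusted p = 0.00469). In replicate 3, the hair keratin-associated gene KRTAP21-2 had 9.31 beside 4.99 and 5.29 in replicates 1 and 2, against 5.20 and 9.13 in the controls. KRTAP6-3 and KRTAP19-6 had the same order, high in replicate 3 and in control replicate 2.

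Against the unweighted mean of the 75 and 100 mg/kg tumours, 1 of 12300 genes passed (0.00813%), with 1471 at an unadjusted p under 0.05. It was IL18R1, the receptor chain of interleukin 18, with 7.55, 7.42 and 6.71 at 87.5 mg/kg, against 5.92, 6.08, 5.87 and 5.95 at 75 mg/kg and 5.59, 5.91 and 5.62 at 100 mg/kg (log2 difference 1.39, SE 0.16, adjusted p = 0.041). All 3 tumours at 87.5 mg/kg detected it and none of the other 7 treated tumours did, so it was at least 2.15-fold higher. In the controls it had 9.13 and 8.96, above every treated tumour, and the 87.5 mg/kg tumours were lower than them (-1.82, SE 0.22, adjusted p = 0.000848). The next smallest p-values did not pass. MYH11, smooth muscle myosin, had 5.08, 4.66 and 5.26 with no tumour detected at 87.5 mg/kg, against means of 6.54 ± 0.69 at 75 mg/kg (SD, n = 4) and 7.53 ± 0.14 at 100 mg/kg (SD, n = 3), and was at least 1.92-fold lower (adjusted p = 0.0786). PLAT, the tissue plasminogen activator, had 11.01, 11.32 and 10.95, against means of 9.75 ± 0.65 and 8.56 ± 0.45 (log2 difference 1.94, adjusted p = 0.127). FBLN7, a fibulin of the matrix, had 8.29, 7.62 and 8.54, against means of 8.95 ± 0.15 and 9.48 ± 0.10 (-1.06, adjusted p = 0.127). For these 3 genes the mean at 100 mg/kg lay farther from that at 87.5 mg/kg than did the mean at 75 mg/kg. Against 75 mg/kg alone 0 genes passed by limma (1036 at an unadjusted p under 0.05), and against 100 mg/kg alone 96 passed (1974 at an unadjusted p under 0.05), of which 53 were higher and 43 lower at 87.5 mg/kg. Without either control or without replicate 1 at 87.5 mg/kg, 0 genes passed against the mean of the other doses, and without replicate 2 or 3 at 87.5 mg/kg 2 and 5 passed. A p that misses the threshold does not show that the doses act alike.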

How the data were processed

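Gene expression was measured on Illumina bead arrays in 12 tumours, of which the 3 at 87.5 mg/kg and the 2 controls are described. Total RNA was column-purified and turned into biotinylated cRNA, per the labels' protocols. The deposited intensities are average bead signals per probe on a linear scale, not normalized, per the file headers. The deposited detection p-values set each probe against negative control beads, per the file headers, and they were joined to the probe IDs through identical signals, since the 2 deposited tables list their IDs in different orders. Scanner software is not given in the sources used here. Of 47323 probes, 30113 had 1 gene symbol in the platform annotation, 8 had several and 17202 had none.

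Signals were background-corrected, quantile-normalized and taken to log2 with neqc of limma 3.58.1 (R 4.3.3), with an offset of 16 and background estimated through the detection p-values. A probe was kept where at least 2 of the 12 arrays detected it (p under 0.01), and each gene was given by its probe with the highest mean. One limma fit over all 4 groups gave each difference, with Benjamini-Hochberg adjustment at 0.05. Values of p and SE are from that fit, so the spread is shared by all 12 tumours. The groups differed in median SD, with 0.226 at 87.5, 0.177 at 75 and 0.17 at 100 mg/kg and 0.125 in the controls. For a gene that varied more at 87.5 mg/kg than elsewhere, the p and SE can therefore be too small. A fit of the 5 tumours alone gave 158 calls instead of 760. Figures were drawn with matplotlib 3.10.9 (Python 3.11.15). On simulated arrays of 12300 genes for the 87.5 mg/kg and control comparison, 61% of genes changed by a log2 of 1 and 97% of those changed by 2 were recovered, and 4.82% of calls were false. The simulated noise was normal, independent between genes and equal in spread for all groups, with 100 genes changed at each size. In the tumours the median SD was 0.226 at 87.5 mg/kg and 0.125 in the controls, so these rates need not hold for them. The number of arrays limits the precision.

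The genes and lists were chosen with earlier results of these data known. Named are the 12 highest and 12 lowest called differences, the genes of the study's question, up to 5 members of each list by p, the 6 called genes with the smallest SD and the 10 genes with the largest SD among the treated tumours, and those with the smallest p against the other doses. Other members were named after their values were seen. Background correction, offset, scaling, detection filter, probe choice, moderation, array weights, a fit of the 5 tumours alone, a fold threshold, a replicate block and leaving out each tumour were tried as alternatives.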

Additional observations from a re-analysis of the deposited data

Results flagged for a closer look

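IL18R1 was 1.39 higher on the log2 scale at 87.5 mg/kg than in the mean of the 75 and 100 mg/kg tumours, so that the change against the shared controls differed between doses by a test of the difference itself (adjusted p = 0.041 in limma). It was higher in 3 of 3 tumours at 87.5 mg/kg than in all 7 others under drug.

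Outside the named genes, 39 of 17210 probes without a single gene symbol were detected in all 3 tumours at 87.5 mg/kg and in neither control. The reverse pattern, detection in both controls and in no tumour at 87.5 mg/kg, was found for 41 of the 17210. Among the 30113 probes with a single gene symbol, the counts were 126 and 174 in the same order.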

How the results depend on the processing

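Against the 760 calls of the chosen fit (400 higher and 360 lower, 52.6% higher), 1784 passed without normalization (193 higher and 1591 lower, 10.8% higher) and 1057 under median scaling (288 higher and 769 lower, 27.2% higher). Array weights gave 1344 (729 higher and 615 lower), a fit of the 5 tumours alone 158 (78 higher and 80 lower) and a fold threshold of log2 1 gave 33. The fit of the 5 tumours alone left 0 calls among integrins and laminins, mitotic genes, and mesenchymal and epithelial markers. It also left 0 among YAP and TAZ targets, ERK output genes, interferon-induced genes, and TGF-beta and BMP genes. Secretory genes kept 4 rises, receptor kinases 1 rise, Notch genes 1 rise, and squamous and serpin B genes 1 rise and 3 falls. Of the 112 called genes followed through the alternatives, 75 lost their call in this fit. Among them were LPCAT1 (adjusted p = 0.0814 in limma), IRS1 (0.0761), HEYL (0.0564), HES6 (0.0645), SPRR3 (0.0585) and KRT14 (0.0874). Leaving out 1 tumour gave 236 to 967 calls, with 134 to 535 higher and 102 to 432 lower. The count against the mean of the other doses, 1 in the chosen fit, was 0 without background correction, with offset 50 and without a detection filter, 2 with trended robust moderation and with array weights, and 0 to 5 when 1 tumour was left out. The median SD at 87.5 mg/kg ran from 0.146 to 0.226 when 1 tumour was left out, and the number of genes with an SD over 1 from 113 to 439. That number was 72 without background correction, 127 with offset 50 and 68 without normalization. The causes were not tested.

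The replicate block gave 500 calls (274 higher and 226 lower) and 0 against the mean of the other doses. Tumours of the 2 groups share 2 numbers, and the deviations of same-numbered tumours from their group means had r = -0.19 and -0.03. With 2 controls those deviations are mirror images, so crossed numbers gave the same values with the sign turned (0.19 and 0.03). Whether the numbers pair the tumours cannot be decided this way. Of 241 genes followed through the alternatives, which include every called member of a list, 112 passed in the chosen fit, 32 of these passed under every alternative that tested them, and no called direction reversed. Signals near background limit the dim genes, for which only bounds are given, and with 2 controls a call rests on each of them.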
